A study of Mus musculus with 4 samples.

Results

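The 54 genes described here encode homeodomain transcription factors, most of which pattern the brain and the spinal cord. The genes were chosen by name from the homeobox superfamily with the clustered Hox genes left out: the Emx, Otx, Dlx, Gsx, En, Gbx, LIM-homeobox (Lhx, Lmx, Isl), Nkx2, Nkx6, Irx, Pitx, Six2, Six3, Six6, Vax1, Msx, Tlx, Barhl, Lbx1, Pou4f1 and Meis members. They are 54 of the 20780 autosomal protein-coding genes that were compared. The rule that names them uses no methylation value, though they were chosen with earlier results of these data known. Whole-genome bisulfite sequencing gave the CpG methylation of 4 brains from male mouse embryos at E11.5, of the strain 129S6.cg Tet1<tm1Koh>, in whose mutant allele a cassette at the first coding ATG disrupts Tet1. The 4 libraries were KO at 30 ppm, WT at 30 ppm, KO at 3 ppm and WT at 3 ppm, where KO carries 2 disrupted Tet1 alleles, WT none, and the number is the folic acid (FA) in the diet of the heterozygous dam, with 30 ppm called excess FA and 3 ppm control FA. All diets also held the antibiotic succinyl sulfathiazole, and each group was 1 embryo from its own litter. By their numbers in the study's list of embryos, the KO brains came from embryos with a neural tube defect and the WT brains from normal embryos. Genotype, phenotype and litter therefore cannot be told apart here, nor can diet and litter. The dissected tissue ran from forebrain to hindbrain, so a level is an average over many cell types, and a change in cell makeup cannot be told apart from a change within cells.

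A homeodomain protein binds short DNA motifs through a fold of α-helices, and in the neural tube such proteins are switched on in bands and stripes by Shh, Wnt, Bmp and Fgf signals, so that each domain of progenitors comes to make its own class of neurons. Their start sites are known to lie in long, CpG-rich stretches that stay free of DNA methylation in most tissues, where the genes are kept silent by Polycomb complexes rather than by methylated CpGs. TET1 is a dioxygenase that oxidizes 5-methylcytosine as the opening step of its removal. In KO brains at E11.5 the study found no full-length Tet1 transcript but low expression of a short one, also present in WT. By Western blot it detected no TET1 protein in WT or KO brains at that stage. The comparison of KO with WT at each diet asks where methylation differs after loss of full-length Tet1, and that of the diets asks whether FA excess changes this.

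Each gene was split into a start window (1 kb on each side of the gene start), the gene body outside that window, and 5 kb of upstream and downstream flank. The level of a part was the share of methylated reads among all reads over those of its CpGs that had 5 or more reads in each library, and a difference is KO minus WT in percentage points. A part was called at an adjusted p under 0.05 with a difference of at least 10 points, by Fisher's exact test (two-sided, Benjamini-Hochberg adjustment over all genes). With 1 library per group this test compares the reads of 2 libraries and not the conditions, and since CpGs on the same read are not independent its p-values are too small. The mean depth was 13.2, 14.3, 21.2 and 16.2 reads per CpG in KO and WT at 30 ppm and KO and WT at 3 ppm. Over the autosomal CpGs with 5 or more reads in each library, the mean of the CpG fractions was 83.5%, 81.4%, 82.8% and 82.1%. The start windows of the homeobox genes were thinly covered: 1320 of their 6501 CpGs (20.3%) passed the read minimum, beside 31.8% over all genes, and 58.2% of the CpGs passed in gene bodies and 62.7% in upstream flanks. No start window value was therefore obtained for Lbx1, a specifier of dorsal spinal interneurons (0 of 168 CpGs), nor tested for Irx3 (2 of 137 CpGs), while Meis1 kept the largest share (67.3%). The tested start windows held 3 to 73 CpGs (median 24.5).

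The start windows were nearly free of methylation in all 4 brains. The median level over the 52 tested was 2.26% in KO against 2.05% in WT with excess FA and 2.25% in KO against 1.87% in WT with control FA, beside 46.2%, 37.5%, 46% and 37.3% over all genes. These levels hold for CpGs that passed the read minimum, 31.8% of those in the start windows of all genes. Pooled over all genes, such CpGs stood at 54.9% to 58.2% in the first 500 bp downstream of the start (14815 genes). In the 500 bp upstream they stood at 33.1% to 37.6% (17340 genes). The values over all genes therefore need not describe their whole start windows. In 32 of the 52 the level stayed below 5% in every library, in 37 below 10% and in 50 below 50%. The genes with the lowest WT level at 3 ppm were Irx1, an Iroquois gene, and Lmx1b, which acts in dopaminergic and serotonergic neurons: each had 3 CpGs with no methylated read in any library. A count of 0 there allows levels of up to 12.5% to 18.8% by library for Irx1 and up to 6.82% to 18.8% for Lmx1b. Otx1, a regulator of the forebrain and midbrain, came next with more support, at 1.22% (0.593–2.5) in KO against 1.17% (0.537–2.53) in WT with excess FA and 0.535% (0.208–1.37) in KO against 0.295% (0.0809–1.07) in WT with control FA over 55 CpGs. These intervals, 95% Wilson intervals here and throughout, cover counting error only. Where no read was methylated, the limit set by 3 counts is given in their place.

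A few start windows were methylated. Lhx4, a LIM-homeobox gene of motor neurons and the pituitary, stood at 73.6% (66.4–79.8) in KO against 69.5% (63.2–75.2) in WT with excess FA and 72.6% (67.6–77) in KO against 66% (59.4–72.1) in WT with control FA. Isl2, a motor neuron gene, was at 25.6% (19.5–32.8) in KO against 17.8% (12.9–24) in WT with excess FA and 25.9% (20.8–31.8) in KO against 25.3% (19.4–32.2) in WT with control FA. Dlx4, a Distal-less gene of the branchial arches, was at 26.5% (21.2–32.7) in KO against 23.7% (18.7–29.6) in WT with excess FA and 20.9% (16.8–25.7) in KO against 23.9% (19.5–29) in WT with control FA. In all 3 the intervals of KO and WT overlapped at both diets, and no difference was called. The levels of Lhx4 and Isl2 depended on the annotated start. Around that of the first-ranked transcript, 25 CpGs of Lhx4 stood between 0% and 1.22% in the 4 libraries and 63 CpGs of Isl2 between 1.66% and 3.68%. The calls depended on the width of the window. In a start window of 2.5 kb on each side, Lhx4 was 13.3 and 11.4 points higher in KO (adjusted p = 5.22e-05 and 6.39e-05, Fisher's exact test) and Dlx4 11.7 and 10.6 points (adjusted p = 0.000144 and 6.13e-05, Fisher's exact test), both called at both diets.

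**Figure D1:**
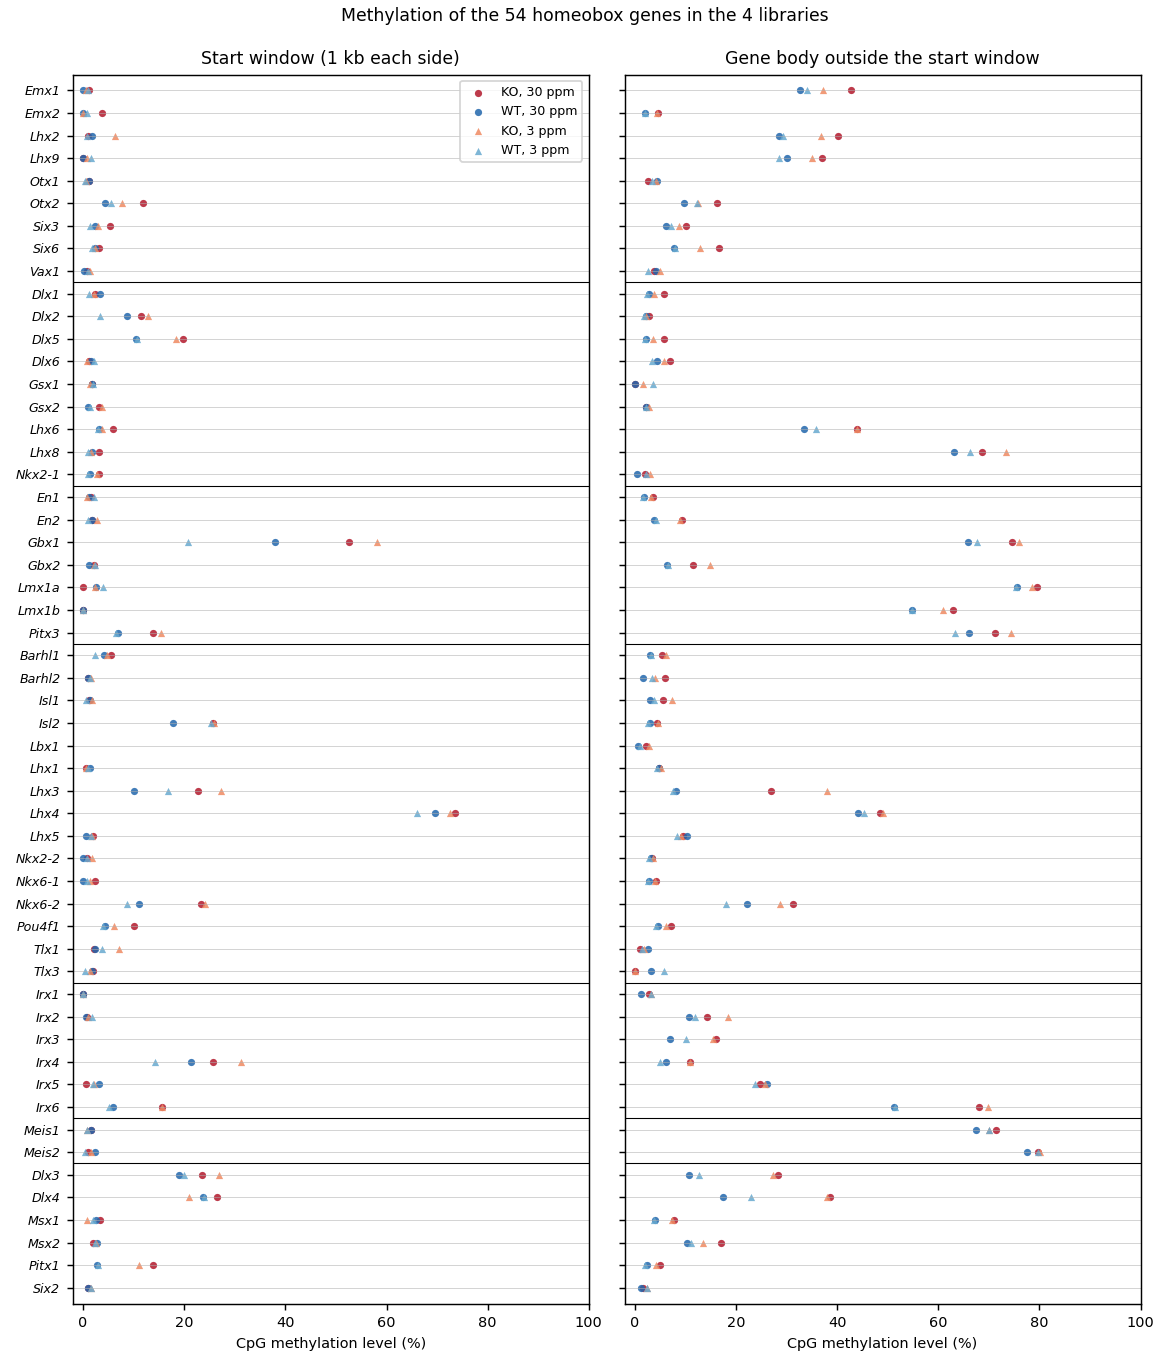
CpG methylation level (%) of each of the 54 homeobox genes in the 4 libraries, for the start window (left) and the gene body outside it (right). Each point is 1 library, rows are genes grouped by role, and untested parts are left blank. Start windows crowd near 0, with 32 of 52 below 5% in all 4 libraries, while gene bodies spread from near 0 to about the level of the genome, with the KO points often to the right of the WT points.

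Differences at the starts were correspondingly small. The median KO minus WT was 0.95 points with excess FA and 0.73 with control FA, beside 3.93 and 3.31 over all genes, each over the CpGs that passed the read minimum. In a chosen list of 55 other autosomal homeobox genes, none of them members, the start window medians were 1.18 and 1.63 points. For 16 patterning signals and Pax genes they were 6.65 and 3.31 points. At 30 ppm 3 of the 52 start windows were called higher in KO (5.77%), beside 15.4% of all genes tested, and at 3 ppm 5 of 52 (9.62%), beside 16.6%. These were Lhx3, Nkx6-2 and Pitx1 at 30 ppm, and Gbx1, Irx4, Irx6, Lhx3 and Nkx6-2 at 3 ppm. In 23 of the 52 (44.2%) both KO libraries lay above both WT libraries, beside 54.1% of all genes. In 3 of the 52 both lay below, a share like that of all genes (1200 of 19897). Since a difference of 10 points was required, a window that went from 0 to 5% would not be called.

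Outside the starts the genes stood further apart between genotypes than genes in general. The median KO minus WT was 3.60 points in gene bodies, 4.02 in upstream flanks and 4.76 in downstream flanks at 30 ppm, beside 1.86, 2.27 and 2.04 over all genes. At 3 ppm the medians were 2.29, 3.36 and 3.53, beside 0.72, 1.03 and 0.88. Both KO libraries lay above both WT libraries in 42 of 54 gene bodies (77.8%), 42 upstream flanks (77.8%) and 46 downstream flanks (85.2%), beside 55.7%, 41.8% and 42% of all genes. These parts were themselves low in methylation, with a median gene body level of 9.43% in KO against 5.47% in WT with excess FA and 8.85% in KO against 5.48% in WT with control FA, against 84.9% to 86.9% over all genes. The chosen list of 55 other autosomal homeobox genes, which are no members, had medians of 3.33, 2.70 and 4.05 points in bodies, upstream and downstream flanks at 30 ppm. At 3 ppm its medians were 2.46, 2.89 and 2.67. Both KO libraries lay above both WT libraries in 70.4%, 67.3% and 67.3% of those tested. For 16 patterning signals and Pax genes the medians were 5.78, 4.25 and 5.53 points, and 3.28, 2.36 and 4.29, with 93.8%, 62.5% and 62.5%. These medians too lay above those of all genes. No difference between the lists was tested.

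Calls followed the same split. In gene bodies 7 of 54 were higher in KO at 30 ppm (13%) beside 3.06% of all genes, and 6 at 3 ppm (11.1%) beside 2.73%. In upstream flanks the counts were 10 (18.5%) beside 4.8% at 30 ppm, and 11 (20.4%) beside 3.45% at 3 ppm. Downstream flanks gave 8 (14.8%) beside 4.42%, and 6 (11.1%) beside 3.83%. Over any part, 21 genes were higher at 30 ppm (38.9%) beside 23.8% of all genes, 17 at 3 ppm (31.5%) beside 22.7%, and 10 in the same part at both diets (18.5%) beside 11.3%. No part of any of the 54 was called lower in KO at either diet, beside 0.483% of all genes at 30 ppm and 0.707% at 3 ppm. With shares this small, 0 of 54 is no result about these genes. The nearest was the gene body of Otx1 at 30 ppm, with 2.59% in KO against 4.49% in WT (-1.90 points, adjusted p = 0.0356, Fisher's exact test), which misses the 10 points.

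**Figure D2:**
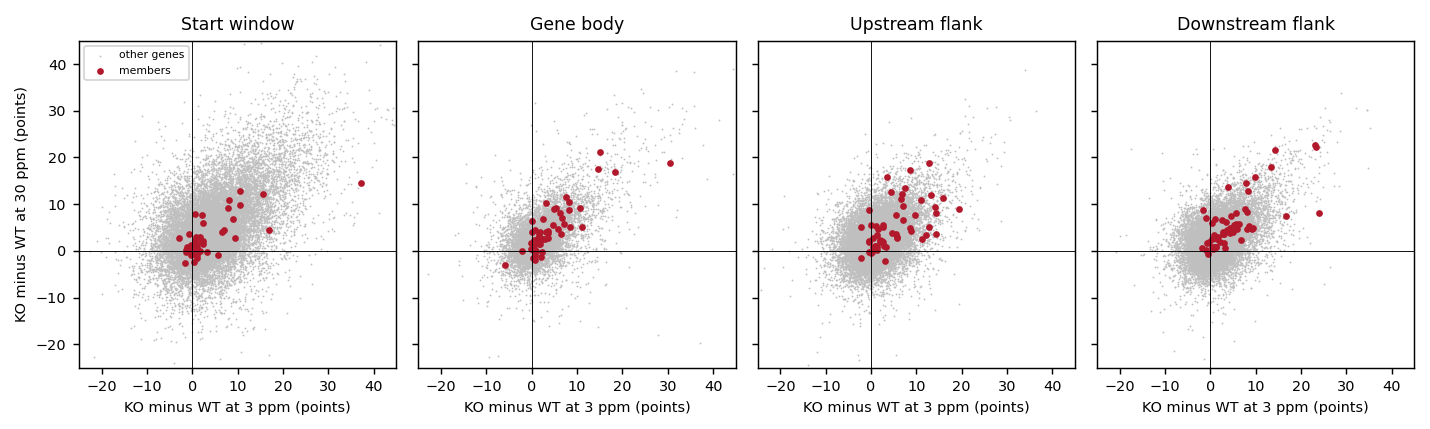
KO minus WT at 3 ppm (x axis) against KO minus WT at 30 ppm (y axis), both in percentage points of CpG methylation, for the 4 gene parts. Red points are the homeobox genes and grey points all other autosomal protein-coding genes; in the flanks most red points sit to the upper right of the origin, with both KO libraries above both WT libraries in 46 of 54 downstream flanks.

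The fit of limma on the log2 odds of methylation, with the 2 KO against the 2 WT libraries and diet in the model, is the only test here whose error comes from libraries, with 1 residual degree of freedom moderated across genes. It weighs a small difference in points more at a low level than at a middling level. With 1 embryo per group, it measures no spread between embryos of the same group. On simulated data this fit called more unchanged parts than its nominal rate. By limma 6 of 52 start windows were higher in KO (Gsx2, Irx6, Nkx2-1, Nkx6-2, Pitx1 and Pitx3), beside 7.39% of all genes, 26 of 54 gene bodies (48.1%) beside 6.76%, 14 upstream flanks (25.9%) beside 3.31%, and 12 downstream flanks (22.2%) beside 2.27%. In all, 39 of the 54 (72.2%) had a called part, beside 16.9% of all genes. No part was called lower, beside 0.761% of all genes, a share at which 0 of 54 is no result about these genes. At an unadjusted p under 0.05, limma had 1 start window (1.92% beside 1.1% of all genes) and 1 gene body (1.85% beside 1.7%) lower in KO. With a prior variance that follows the read number, an alternative chosen after the data were seen, limma called 10 of 52 start windows. Of 54 each, it called 32 gene bodies, 24 upstream and 25 downstream flanks. All genes had 21.3%, 17.4%, 8.31% and 9.87% in the same order. The share of start windows was then below that of all genes, and the shares of the other parts were above.

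Around the start, the low stretch was wide. Pooled over the 43 of the 54 genes with a usable CpG there, the level in the 500 bp upstream of the start differed by 0.60 points between KO and WT at 30 ppm and 0.86 at 3 ppm. In the bin from 2 to 2.5 kb downstream (44 genes) it was 9.02% in KO against 4.33% in WT with excess FA and 9.82% in KO against 4.38% in WT with control FA. In the bin from 5 to 4.5 kb upstream (48 genes) it was 50.9% and 45.3%, and 48.2% and 42.4%, where all genes stood at 81.8%, 79.3%, 81.2% and 79.9%.

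**Figure D3:**
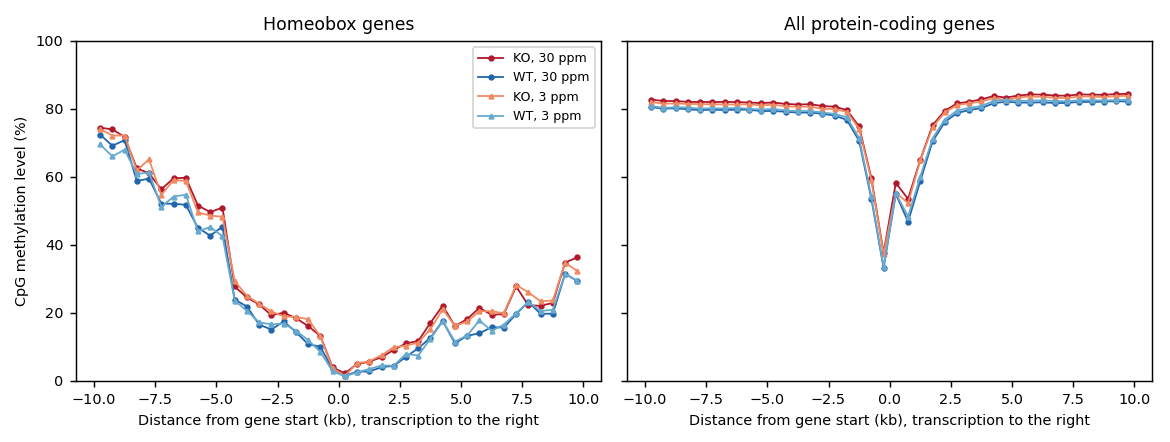
CpG methylation level (%) in bins of 500 bp from 10 kb upstream to 10 kb downstream of the gene start, pooled over the usable CpGs of the homeobox genes (left, 33 to 53 of the 54 genes per bin) and of all autosomal protein-coding genes (right, 14815 to 18367 genes per bin), with 1 line per library. The low stretch of the homeobox genes spans several kb, and at 2 kb downstream both KO lines (9.02% and 9.82%) lie above both WT lines (4.33% and 4.38%).

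A methylation valley was taken as the run of 500-bp bins below 20% around a start in a WT library. Bins with fewer than 2 usable CpGs were passed over and count in its width, so widths include unmeasured sequence. Of the 54 genes, 42 had a valley in each WT library and 10 had no bin beside the start with enough reads to tell. Dlx4 in both WT libraries, Lhx3 in WT at 3 ppm and Irx4 in WT at 30 ppm were measured and had none. Its median width was 14000 bp in WT at 3 ppm and 13500 bp in WT at 30 ppm, beside 1500 and 2000 bp for the 8499 and 8460 genes of the genome with a valley. Valleys of at least 5 kb were found at 38 (70.4%) and 37 (68.5%) of the 54, beside 2.01% and 2.04% of all genes. With a limit of 10% the median widths were 10000 and 8500 bp, and 59.3% and 57.4% of the 54 had a valley of at least 5 kb, beside 1.43% and 1.41% of all genes. The widest in WT at 3 ppm were those of the Dlx5 and Dlx6 pair (30000 and 29500 bp), 9236 bp apart, which act in ventral forebrain interneurons and in the jaw and limb (29500 and 10500 bp with the limit of 10%). The narrowest, of 2500 bp, included Otx2, which makes the forebrain and midbrain, and Pitx3, which acts in dopaminergic neurons. The Otx2 run stopped at a bin of 2 CpGs, 1000 to 1500 bp downstream, at 63.2% in WT at 3 ppm. Further in, the gene was low again, with 1.25% at 6500 to 7000 bp (20 CpGs), so 2500 bp understates the low sequence of Otx2. Dlx1 with Dlx2 and Dlx5 with Dlx6 lie in shared valleys, so their values are not independent.

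To look at the edges, each valley was set in the WT library of the other diet, so that the libraries compared had no part in placing it. In the first 500 bp outside the edge the level went from a mean of 41.6% in WT to 56.1% in KO at 30 ppm, a difference of 14.5 points over 84 edges, of which 74 (88.1%) were above 0. At 3 ppm it went from 42% to 54.1%, a difference of 12.1 points, with 75 of 84 edges (89.3%) above 0. Over all genes the same bin differed by 9.89 and 8.01 points, from higher mean WT levels of 57.1% and 58.9%. With valleys set at a limit of 10% the homeobox genes differed by 12.2 and 11.4 points, beside 10.46 and 8.71 over all genes. The distance from all genes thus depended on the limit. In the first 500 bp inside the edge the homeobox genes differed by 9.16 and 8.65 points, beside 6.12 and 5.78 over all genes. At the limit of 10% this fell to 4.83 and 3.49 points, beside 3.94 and 3.85 over all genes, which were then the higher at 3 ppm. Between 2.5 and 3 kb inside, the homeobox genes differed by 2.13 and 2.25 points. At 3.5 to 4 kb outside the difference was 3.70 and 3.41 points, beside 2.62 and 1.41 over all genes.

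**Figure D4:**
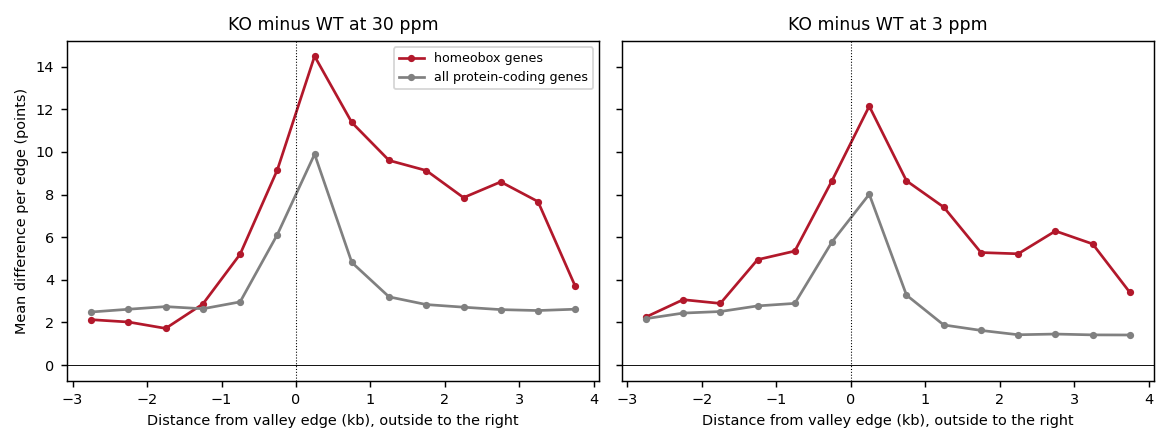
Mean KO minus WT (percentage points) by distance from the edge of the methylation valley (kb, outside to the right), at 30 ppm (left) and 3 ppm (right), for the homeobox genes (red) and all protein-coding genes with a valley (grey). For the homeobox genes the difference is highest in the first 500 bp outside the edge, at 14.5 and 12.1 points, and is between 2 and 3 points at 2.5 to 3 kb inside.

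The CpGs were also sorted by their surroundings. In CpG islands of the 54 genes (3903 CpGs) the level was 3.63% in KO against 2.28% in WT with excess FA and 3.42% in KO against 2.20% in WT with control FA. In the 2 kb of shore beside an island (5504 CpGs) it was 17% and 12.1%, and 16.8% and 12.1%. Elsewhere (7993 CpGs) it was 70% and 65.6%, and 69.8% and 66.8%. KO minus WT in islands was thus 1.35 and 1.22 points, beside 4.15 and 5.52 over the islands of all genes, while in shores it was 4.87 and 4.69 beside 5.91 and 4.67, and elsewhere 4.48 and 3.04 beside 1.80 and 0.50. When bins were sorted by their WT level at the other diet, those of the homeobox genes between 20% and 50% had the highest mean difference, 16.3 points (184 bins) at 30 ppm and 11.9 points (196 bins) at 3 ppm, beside 10.6 and 7.85 over all genes. Homeobox bins between 50% and 80% also differed by more than those of all genes, 8.37 and 5.10 points beside 4.72 and 2.88. Those of 80% or more differed by 2.34 and 0.72 points, beside 1.17 and 0.007. Bins between 5% and 20% differed by less than those of all genes, 9.56 and 7.60 points beside 10.02 and 8.55. So did bins below 5%, with 1.17 and 1.35 points beside 2.39 and 2.40. These lowest bins made up 34.2% of the homeobox bins and 1.86% of all bins in the 30 ppm comparison.

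The genes were described by role, and the share of each group called in any part is to be read beside 23.8% of all genes at 30 ppm, 22.7% at 3 ppm and 16.9% by limma. Of the 9 dorsal and rostral forebrain genes, 2 were called higher in KO at 30 ppm (22.2%, Emx1 and Lhx2), 1 at 3 ppm (11.1%, Emx1), and 5 by limma (55.6%). Of these the limma share alone lay above that of all genes. Emx1, a regulator and marker of the cerebral cortex (chr6:85187438-85204462, + strand), had the largest difference shared by both diets, in its downstream flank. The level over 39 CpGs there was 83.6% (79.2–87.2) in KO against 60.9% (56.2–65.4) in WT with excess FA and 87% (84.3–89.3) in KO against 63.9% (59.1–68.4) in WT with control FA. Both KO intervals lay above both WT intervals, with 22.7 and 23.1 points between KO and WT (adjusted p = 1.01e-09 and 3.94e-16, Fisher's exact test; limma, adjusted p = 0.00142). With a minimum of 10 reads, 7 CpGs were left and the difference at 30 ppm was -0.41 points (adjusted p = 1, Fisher's exact test), so this result rests on CpGs with fewer than 10 reads in at least 1 library. At 3 ppm it was then 14.8 points (adjusted p = 0.0478, Fisher's exact test).

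The stretches of Emx1 where the study's own method called a differentially methylated region (DMR) at both diets are shown because KO and WT differ there at single CpGs, which stand in capitals (GRCm38.p6, mm10, + strand). The downstream region lies at chr6:85206321-85206532, outside any exon, and the intronic region at chr6:85194377-85194676 is the first 300 bases of a longer region that ends at 85195114. The intronic region lies outside the downstream flank, and another shared region, downstream, had 0 CpGs with 5 reads in all 4 libraries and is not shown.
Emx1 downstream: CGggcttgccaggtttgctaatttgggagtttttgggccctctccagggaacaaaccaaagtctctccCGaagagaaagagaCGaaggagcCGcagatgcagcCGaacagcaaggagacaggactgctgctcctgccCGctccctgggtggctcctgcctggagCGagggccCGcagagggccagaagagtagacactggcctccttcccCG
Emx1 intron: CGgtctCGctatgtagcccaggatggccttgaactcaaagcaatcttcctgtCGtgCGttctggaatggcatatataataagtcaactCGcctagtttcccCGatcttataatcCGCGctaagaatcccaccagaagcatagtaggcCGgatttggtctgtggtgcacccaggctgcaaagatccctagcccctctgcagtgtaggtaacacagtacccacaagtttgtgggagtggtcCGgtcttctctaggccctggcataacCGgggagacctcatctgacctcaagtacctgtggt
Over the 9 CpGs of the downstream region the level was 71.8% (60.5–81) in KO against 32% (23.8–41.6) in WT with excess FA and 72.2% (63.4–79.5) in KO against 23.8% (16–33.9) in WT with control FA. Its CpG at base 165 was at 85.7% in KO against 15.4% in WT with excess FA and 61.5% in KO against 10% in WT with control FA. Over the 18 CpGs of the whole intronic region the level was 74.8% (69.3–79.6) in KO against 23.4% (17.7–30.3) in WT with excess FA and 56.4% (50.7–62.1) in KO against 17.8% (12.7–24.2) in WT with control FA. In every CpG printed here with 5 reads in all 4 libraries, 9 downstream and 10 intronic, KO was above WT at both diets. The DMRs were called on these same libraries, so the regions are no independent evidence of the direction. The gene start itself showed no such difference, with a start window level of 1.23% (0.218–6.67) in KO against 0% (up to 3.61) in WT with excess FA and 0.629% (0.111–3.48) in KO against 0.893% (0.158–4.88) in WT with control FA.

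Lhx2, which specifies the eye field and the cortex, was called in its gene body at 30 ppm alone, at 40.1% (38.6–41.7) in KO against 28.5% (27.2–29.9) in WT with excess FA and 36.9% (35.7–38.1) in KO against 29.3% (28.1–30.6) in WT with control FA (11.6 points at 30 ppm, adjusted p = 7.76e-27, Fisher's exact test, and 7.56 points at 3 ppm, adjusted p = 2.06e-15). All intervals of KO lay above those of WT, and the call at 30 ppm turned on the 10-point limit: it was lost with no minimum of reads (9.01 points) and as a mean of CpG fractions (9.39 points). Six6, a gene of the eye field and pituitary, was at 16.7% (14.4–19.2) in KO against 7.67% (6.25–9.38) in WT with excess FA and 12.9% (11.4–14.6) in KO against 7.88% (6.6–9.38) in WT with control FA in its body (limma, adjusted p = 0.0104). The other genes of the group, Emx2, Lhx9, Otx1, Otx2, Six3 and Vax1, had differences between -1.90 and 7.05 points in their bodies at 30 ppm.

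Of the 9 ventral forebrain genes, 3 were called at 30 ppm (33.3%), 1 at 3 ppm (11.1%) and 7 by limma (77.8%), against 23.8%, 22.7% and 16.9% of all genes. Lhx6 (chr2:36081953-36105408, - strand), required for cortical interneurons from the medial ganglionic eminence, was the one called at both diets. Its upstream flank of 28 CpGs was at 65.6% (60.4–70.5) in KO against 46.8% (41.8–52) in WT with excess FA and 67.3% (63.4–71) in KO against 54.6% (49.9–59.2) in WT with control FA, 18.7 and 12.7 points higher in KO (adjusted p = 5.6e-05 and 0.00149, Fisher's exact test; limma, adjusted p = 0.02495). The call at 3 ppm was lost at 8.94 points with a minimum of 10 reads and at 9.49 points in thinned libraries. With a start window of 2.5 kb, which left 14 CpGs of flank, both calls were lost (14.5 and 10.2 points, adjusted p = 0.0607 and 0.149, Fisher's exact test). Its downstream flank was at 66.9% (61.2–72.1) in KO against 58.9% (53.4–64.1) in WT with excess FA and 76.9% (72.9–80.4) in KO against 52.9% (47.8–58) in WT with control FA, with 8.03 points at 30 ppm, not called, and 23.95 at 3 ppm (adjusted p = 6.35e-11, Fisher's exact test). With a minimum of 10 reads 7 CpGs were left there, and the difference at 30 ppm turned to -4.29 points. Dlx1, a Distal-less gene of interneurons, was called upstream at 30 ppm with 12.2 points, and Dlx5 with 13.4.

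Of the 7 midbrain, isthmus and dopaminergic genes, 4 were called at 30 ppm (57.1%), 3 at 3 ppm (42.9%) and 5 by limma (71.4%), where all genes had 23.8%, 22.7% and 16.9%. Gbx2 (chr1:89927956-89931179, - strand), which places the midbrain-hindbrain boundary, was called in its downstream flank at both diets. Its level over 56 CpGs was 29% (25.1–33.2) in KO against 11.1% (8.75–13.9) in WT with excess FA and 27.1% (24.4–30) in KO against 13.8% (11.4–16.6) in WT with control FA, 17.9 and 13.3 points higher in KO (limma, adjusted p = 0.00475), with a start window at 2.22% (1.08–4.52) in KO against 1.23% (0.48–3.12) in WT with excess FA and 2.18% (1.28–3.7) in KO against 2.36% (1.29–4.29) in WT with control FA. Gbx1, its relative (chr5:24502757-24527202, - strand), had the largest difference at a single diet, in a start window of only 4 CpGs. There the level was 52.5% (37.5–67.1) in KO against 38% (27.6–49.7) in WT with excess FA and 58.1% (47.9–67.6) in KO against 20.8% (13.1–31.6) in WT with control FA, 14.5 points at 30 ppm (adjusted p = 0.352, Fisher's exact test) and 37.2 at 3 ppm (adjusted p = 2.68e-05). The wide intervals at 30 ppm overlapped. In a start window of 2.5 kb on each side, with 31 CpGs, the differences were 17.9 and 23.9 points (adjusted p = 4.48e-06 and 5.94e-14, Fisher's exact test), and both were called.

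Lmx1a, which acts in the roof plate and in dopaminergic progenitors (chr1:167689237-167848741, + strand), was at 64.1% (59.7–68.1) in KO against 46.8% (42.4–51.2) in WT with excess FA and 65.2% (61.7–68.6) in KO against 56.6% (52.8–60.4) in WT with control FA in its upstream flank. The difference was 17.3 points at 30 ppm (adjusted p = 6.5e-06, Fisher's exact test) and 8.58 at 3 ppm, under the 10 points. At 3 ppm the value passed the limit with a minimum of 10 reads (13.5 points) and as a mean of CpG fractions (11.46), and was 1.78 points with a start window of 2.5 kb. Pitx3 was called upstream at 30 ppm (12.7 points), and in its body (11) and downstream flank (16.7) at 3 ppm. En1 and En2, which pattern the midbrain and cerebellum, had bodies below 10% in all libraries, and En1 was called downstream at 30 ppm (12.8 points). En2 stood at 9.38% (7.68–11.4) in KO against 3.89% (2.85–5.29) in WT with excess FA and 8.87% (7.42–10.6) in KO against 4.15% (3.07–5.58) in WT with control FA there, with KO above WT at both diets (limma, adjusted p = 0.00289).

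The 15 hindbrain and spinal cord genes held 7 called at 30 ppm (46.7% beside 23.8% of all genes), 6 at 3 ppm (40% beside 22.7%), 4 in the same part at both diets (26.7% beside 11.3%: Lhx3, Lhx4, Nkx6-2 and Tlx1) and 12 by limma (80% beside 16.9%). Lhx3, which specifies motor neurons with Isl1 (chr2:26200212-26208289, - strand), was called higher in KO in every part but its upstream flank. Its gene body of 68 CpGs was at 27% (23.8–30.5) in KO against 8.13% (6.31–10.4) in WT with excess FA and 38% (35.2–40.9) in KO against 7.64% (6.06–9.59) in WT with control FA, 18.9 and 30.4 points higher in KO (adjusted p = 4.31e-19 and 3.48e-57, Fisher's exact test; limma, adjusted p = 0.000869). Its downstream flank of 24 CpGs was at 35.8% (30–42) in KO against 13.7% (9.94–18.5) in WT with excess FA and 39.5% (34.8–44.4) in KO against 16.2% (12.7–20.4) in WT with control FA, with 22.1 and 23.3 points (adjusted p = 1.17e-06 and 1.83e-10, Fisher's exact test).

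The start window of Lhx3 was called as well, at 22.7% (16.8–30) in KO against 10% (6.25–15.6) in WT with excess FA and 27.4% (21.7–33.9) in KO against 16.8% (12.4–22.4) in WT with control FA. Its upstream flank was methylated in all 4 brains, at 89.6% (84.9–93) in KO against 88.8% (84.2–92.1) in WT with excess FA and 92.5% (89.5–94.6) in KO against 89.2% (85–92.3) in WT with control FA, and was not called. In the 500-bp bin 4.5 kb into the gene the level was 28.8% in KO against 4.40% in WT with excess FA and 47.9% in KO against 6.90% in WT with control FA. The KO library at 3 ppm was thus the highest of the 4 over the body, and 5 DMRs were deposited at the locus for 3 ppm and none for 30 ppm.

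**Figure D5:**
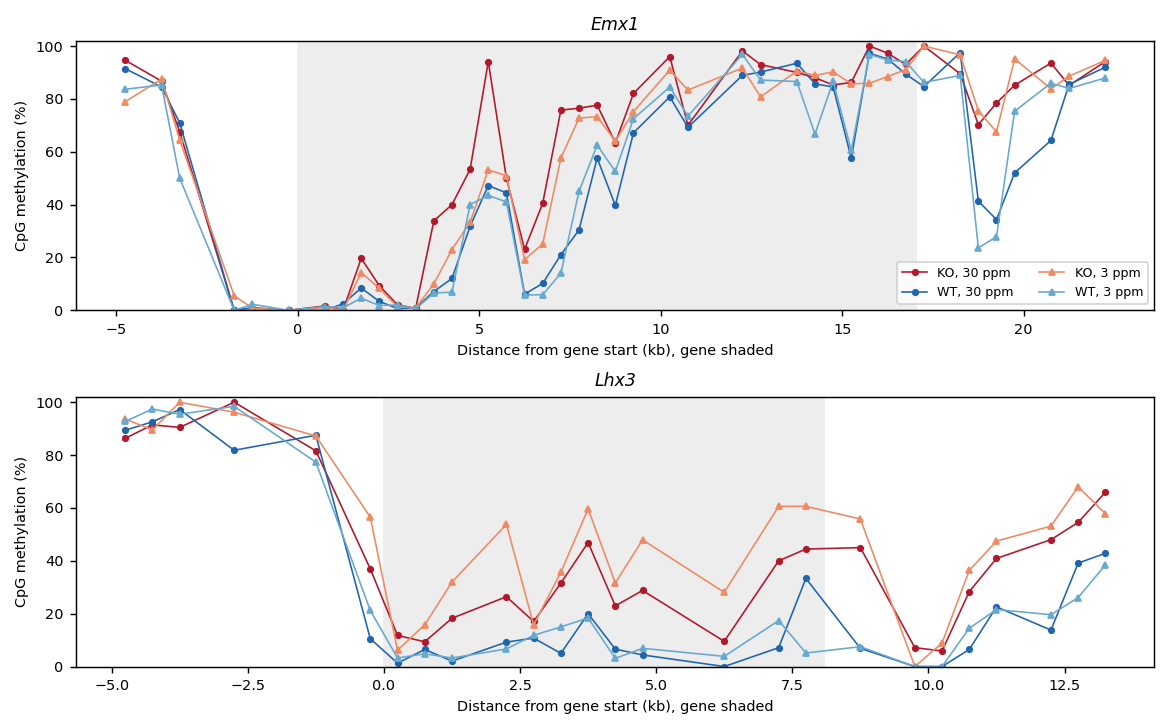
CpG methylation level (%) in bins of 500 bp along Emx1 and Lhx3 with 5 kb on each side, with 1 line per library, distance from the gene start in kb on the x axis and the gene shaded. Emx1 is near 0 at its start in all 4 libraries and parts between genotypes at 7.0 kb (75.8% in KO against 21.1% in WT with excess FA and 57.6% in KO against 14% in WT with control FA), while Lhx3 parts along its body.

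Nkx6-2 (chr7:139579376-139582797, - strand), a gene of ventral neural tube progenitors and oligodendrocytes, was called in its start window and upstream flank at both diets. The start window of 33 CpGs was at 23.3% (18.9–28.3) in KO against 11.1% (8.26–14.9) in WT with excess FA and 24.2% (20.7–28) in KO against 8.6% (6.09–12) in WT with control FA, 12.1 and 15.6 points higher in KO (adjusted p = 0.000598 and 5.42e-08, Fisher's exact test; limma, adjusted p = 0.0352). With no minimum of reads beyond the 2 that every listed CpG had, 106 CpGs entered and the differences were 4.70 and 9.02 points, below the limit. At 30 ppm the call was also lost with a minimum of 10 reads (13.8 points, adjusted p = 0.0724, Fisher's exact test) and as a mean of CpG fractions (8.33 points). At 3 ppm it was 25 points with a minimum of 10 reads. The upstream flank was at 28.6% (25–32.6) in KO against 17.4% (14.4–20.9) in WT with excess FA and 30.7% (27.5–34) in KO against 14.7% (12.2–17.6) in WT with control FA, with no overlap between the intervals of KO and WT.

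Lhx4 (chr1:155698031-155751684, - strand) was called in its upstream flank, where 23 CpGs stood at 77.7% (72.4–82.3) in KO against 65.7% (59.6–71.4) in WT with excess FA and 78.8% (74–82.9) in KO against 65.7% (59.8–71.1) in WT with control FA, 12 and 13.1 points higher in KO (adjusted p = 0.0288 and 0.00985, Fisher's exact test). This call was lost under several alternatives, among them a minimum of 10 reads (15.9 and 7.41 points). Inside the gene, an intronic region deposited as a DMR at both diets differed by more, and its first 300 bases, chr1:155727913-155728212 (GRCm38.p6, + strand), are shown for that reason with CpGs in capitals.
Lhx4 intron: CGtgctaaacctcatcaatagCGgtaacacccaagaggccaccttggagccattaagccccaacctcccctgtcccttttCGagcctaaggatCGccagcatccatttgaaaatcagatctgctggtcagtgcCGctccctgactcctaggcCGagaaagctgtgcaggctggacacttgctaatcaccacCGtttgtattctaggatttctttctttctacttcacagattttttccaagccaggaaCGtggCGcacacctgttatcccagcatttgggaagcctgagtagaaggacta
Over the 10 CpGs of the whole region the level was 56% (47.2–64.4) in KO against 18.3% (13.4–24.5) in WT with excess FA and 63.2% (56.3–69.5) in KO against 21.6% (16.5–27.8) in WT with control FA. Each of the 9 CpGs printed was higher in KO at both diets, from the CpG at base 1 (61.5% in KO against 4.17% in WT with excess FA and 48.1% in KO against 15.6% in WT with control FA) to that at base 254 (57.1% and 50%, 100% and 43.8%). Averaged over the 511 CpGs of the body, KO stood 4.23 and 3.58 points above WT, so that the region is a small part of a body at 44.2% to 49%.

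Tlx1 (chr19:45150680-45156943, + strand), a gene of sensory relay neurons and of the spleen, was called in its upstream flank of 23 CpGs, at 28% (23.1–33.4) in KO against 17% (13.2–21.6) in WT with excess FA and 28.3% (24.4–32.6) in KO against 17.4% (13.8–21.6) in WT with control FA. The differences of 10.98 and 10.96 points (adjusted p = 0.0209 and 0.00529, Fisher's exact test) lay close to the limit and fell below it with a start window of 2.5 kb (9.47 and 2.40 points). The mean of CpG fractions was below it at 30 ppm (9.08), and the values with no minimum of reads (9.34) and in thinned libraries (9.78) at 3 ppm, where a minimum of 10 reads gave 17.3 points. The others called at 1 diet were Nkx2-2 (15.9 points) and Pou4f1 (11.1) upstream and Isl2 (13.7) downstream at 30 ppm, and Barhl1 (14.4) and Tlx3 (14) upstream at 3 ppm. Lhx1, Lhx5, Lbx1, Nkx6-1, Isl1 and Barhl2, which also mark classes of spinal neurons, had no call by Fisher's exact test.

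Of the 6 Iroquois genes, which pattern the neural plate and the heart and limb, 2 were called at 30 ppm (33.3% beside 23.8% of all genes), 3 at 3 ppm (50% beside 22.7%) and 5 by limma (83.3% beside 16.9%). Irx6 (chr8:92674288-92680956, + strand) was the one called at both diets. Its body of 41 CpGs was at 68% (63.1–72.4) in KO against 51.2% (46.4–55.9) in WT with excess FA and 69.9% (66.4–73.2) in KO against 51.5% (47.1–56) in WT with control FA, 16.8 and 18.4 points higher in KO (adjusted p = 9.8e-06 and 5.69e-09, Fisher's exact test; limma, adjusted p = 0.00505). With a start window of 2.5 kb the difference at 30 ppm was 10.4 points, still called. Its start window was at 15.6% (11.3–21.1) in KO against 5.83% (3.36–9.9) in WT with excess FA and 15.7% (12–20.3) in KO against 5.09% (2.87–8.89) in WT with control FA, called at 3 ppm (10.6 points) and short of the limit at 30 ppm (9.74). An intronic DMR deposited at both diets, chr8:92675265-92675414 (GRCm38.p6, + strand), spans the border of the start window and the body. It is shown with CpGs in capitals to set methylated beside unmethylated CpGs.
Irx6 intron: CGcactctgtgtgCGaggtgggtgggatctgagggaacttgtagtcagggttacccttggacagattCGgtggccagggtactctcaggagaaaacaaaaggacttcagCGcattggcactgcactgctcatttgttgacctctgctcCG
Over its 5 CpGs the level was 34.5% (23.6–47.3) in KO against 10% (5.35–17.9) in WT with excess FA and 28.2% (19–39.5) in KO against 11.9% (6.18–21.8) in WT with control FA. The CpG at base 1 had no methylated read in any library, which allows levels of up to 21.4% to 30% by library, whereas that at base 110 was at 78.6% in KO against 23.8% in WT with excess FA and 60% in KO against 25% in WT with control FA. Irx4, known from the heart ventricle (chr13:73260479-73269608, + strand), had a start window of 12 CpGs at 25.7% (18.2–35) in KO against 21.3% (14.2–30.6) in WT with excess FA and 31.2% (24.2–39.2) in KO against 14.3% (8.7–22.6) in WT with control FA, with 4.47 points at 30 ppm and 16.96 at 3 ppm (adjusted p = 0.0173, Fisher's exact test). In a window of 2.5 kb on each side these were 7.41 and 11.04 points. Irx3 was called downstream at 30 ppm (14.5 points) and Irx5 upstream at 3 ppm (11.3).

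Meis1 and Meis2, TALE-class partners of other homeodomain proteins, had no call by Fisher's exact test, and limma called 1 of the 2 (50% beside 16.9% of all genes), Meis2 in its downstream flank. Their bodies were among the longest of the set (1074 and 1698 CpGs), with Meis1 at 71.4% (70.7–72.1) in KO against 67.5% (66.8–68.1) in WT with excess FA and 70% (69.5–70.6) in KO against 70% (69.3–70.6) in WT with control FA and Meis2 between 77.6% and 80.1%. Of the 6 genes of roof plate, placode, limb and mesenchyme, 3 were called at 30 ppm (50% beside 23.8% of all genes), 3 at 3 ppm (50% beside 22.7%), 2 in the same part at both (33.3% beside 11.3%) and 4 by limma (66.7% beside 16.9%). Dlx4 (chr11:95140447-95146263, - strand) and Dlx3 (chr11:95120119-95125296, + strand), neighbours that act in the branchial arches and ectoderm, were both called in their bodies. Dlx4 was at 38.7% (35–42.6) in KO against 17.5% (14.9–20.5) in WT with excess FA and 37.9% (35–40.9) in KO against 22.9% (20.3–25.8) in WT with control FA over 64 CpGs (21.2 and 15 points, adjusted p = 1e-16 and 3.93e-11, Fisher's exact test; limma, adjusted p = 0.00454).

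Dlx3 was at 28.3% (24.3–32.6) in KO against 10.8% (8.37–13.8) in WT with excess FA and 27.3% (24.4–30.5) in KO against 12.7% (10.1–15.9) in WT with control FA over 50 CpGs (17.5 and 14.7 points; limma, adjusted p = 0.001745). Requiring 10 reads left 14 CpGs, which differed by 27.2 and 25.9 points. No interval of KO overlapped one of WT in either body. Pitx1, which acts in the pituitary and hindlimb (chr13:55825051-55836192, - strand), was at 55.2% (51–59.4) in KO against 46.2% (42.3–50.2) in WT with excess FA and 62% (58.8–65.1) in KO against 42.5% (38.8–46.2) in WT with control FA upstream, 9.04 points at 30 ppm and 19.5 at 3 ppm (adjusted p = 3.72e-12, Fisher's exact test). The difference at 30 ppm passed the 10 points with no minimum of reads (11.6), as a mean of CpG fractions (11.2) and with a start window of 2.5 kb (18.6). Requiring 10 reads gave 5.83 points. Msx1, Msx2 and Six2 had no call by Fisher's exact test.

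The regions deposited by the study, called between the same pairs of libraries, were counted at the genes with their 5-kb flanks. Higher in KO, 16 regions fell at 11 of the 54 genes at 30 ppm (20.4%), beside 13.7% of all genes, and 22 at 10 genes at 3 ppm (18.5%), beside 14.2%. In all 15 genes had a region at either diet (27.8% beside 19.4% of all genes) and 6 at both (11.1% beside 8.53%: Dlx1, Emx1, Gbx1, Irx6, Lhx4 and Lhx6), 5 of them with regions that overlap. No region lower in KO lay at the 54, beside 0.125% of all genes at 30 ppm and 0.0866% at 3 ppm, and none between diets, beside 0.188% to 0.423% by list. At such shares 0 of 54 is no result about these genes. Beside those shown above, the region of Dlx1, about 3 kb before its start (chr2:71524763-71525134), was at 42.2% (29–56.7) in KO against 10.7% (3.71–27.2) in WT with excess FA and 43.8% (33.4–54.7) in KO against 8.11% (2.8–21.3) in WT with control FA. It rests on 4 CpGs with 28 to 80 reads by library. Though counted at Dlx1 by its flank, it overlaps an exon and an untranslated region annotated outside Dlx1. A region of 250 bp downstream of Gbx2 (5 CpGs), deposited for 30 ppm, was at 75% in KO against 15.6% in WT with excess FA and 44.3% in KO against 12.8% in WT with control FA. A short region in an intron of Meis1 (chr11:18957914-18958014, 6 CpGs) was at 87.7% and 46%, and 81.9% and 57%, in a gene whose body as a whole was not called. Both differed in the same direction at 3 ppm, though listed for 30 ppm alone.

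Between 30 and 3 ppm in KO, 2 of the 54 (3.7%) had a called part, beside 1.74% of all genes, and in WT none had, beside 1.64%. These counts are near the shares of all genes and are no result about the 54. At an unadjusted p under 0.05 by Fisher's exact test, 3 start windows, 15 bodies, 12 upstream and 8 downstream flanks differed in KO (5.77%, 27.8%, 22.2% and 14.8%, beside 12.7%, 20.3%, 10.3% and 11.7% of all genes). In WT there were 4, 9, 4 and 6 (7.69%, 16.7%, 7.41% and 11.1%, beside 11.4%, 22%, 10% and 10.6%). The called parts were the body of Lhx3 (27% at 30 ppm and 38% at 3 ppm in KO, -11 points, adjusted p = 0.000146, Fisher's exact test) and the upstream flank of Barhl1, a gene of hindbrain and cerebellar neurons (44.2% and 54.7% in KO, -10.5 points, adjusted p = 0.0363). Both were lower at the excess of FA. A difference of KO minus WT between diets, by a Wald test of the odds ratios, was called in the gene bodies of 6 genes (11.1%), Barhl2, Emx1, Lhx2, Meis1, Meis2 and Otx2, beside 16.9% of all genes. The count ran from 4 in thinned libraries to 9 with no minimum of reads, and the share of all genes at those settings is not given. For the body of Lhx3 the difference was not called (Wald test on reads across all genes, adjusted p = 0.0515).

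Among genes that are no members, the chosen list of 55 other autosomal homeobox genes had 16 called higher in KO in any part at 30 ppm (29.1% beside 23.8% of all genes), 19 at 3 ppm (34.5% beside 22.7%), 9 in the same part at both (16.4% beside 11.3%) and 33 by limma (60% beside 16.9%). The 16 patterning signals and Pax genes had 9 (56.2%), 7 (43.8%), 4 (25%) and 9 (56.2%) in the same order. Neither list had a part called lower, beside 0.483% and 0.707% of all genes by Fisher's exact test and 0.761% by limma, shares at which 0 says nothing about lists of this size.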

How the data were processed

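The authors trimmed the reads of the 4 bisulfite libraries with Trim Galore 0.6.10, aligned them with Bismark 0.23.1 to GRCm38.p6 (mm10), removed duplicates and merged both strands of a CpG. They deposited, per CpG and library, a count of reads and a methylated fraction, whose product was within 4.37e-11 of a whole count of methylated reads at every autosomal CpG. They also deposited DMRs called with DSS between single libraries (a region list with differences between the pair, of which only positions and direction were used). Bisulfite does not separate 5-methylcytosine from 5-hydroxymethylcytosine. The level of mitochondrial DNA, 0.914% to 0.938% methylated in the 4 libraries, bounds failed conversion.

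Genes were taken from GENCODE M21. Counts were summed per gene part over the 14907672 CpGs read 5 or more times in each library, and parts with at least 3 such CpGs were tested. The alternative with no minimum of reads used all CpGs listed in all 4 libraries, and no listed CpG had fewer than 2 reads. Tests were Fisher's exact test, a Wald test of the difference of 2 log odds ratios (0.5 added to each count), and limma 3.58.1 in R 4.3.3 on log2((methylated + 1)/(unmethylated + 1)), each with Benjamini-Hochberg adjustment over all genes. Fisher's exact test was computed by a custom routine that was checked against SciPy 1.17.1 on simulated reads. On simulated data limma with a single prior variance called more unchanged parts than its nominal rate, and with a prior variance following the read number it called fewer. CpG islands were windows of at least 500 bp with over 55% GC and an observed to expected CpG ratio over 0.65. The genes named with full values were up to 10 called higher in KO in the same part at both diets, up to 5 with the largest difference called at 1 diet, any called lower, those called by the Wald test, and the 3 lowest and 3 highest start windows; others named were chosen after their values were seen. The members and lists were chosen with earlier results of these data known. Sequences were read from the RefSeq GRCm38.p6 genome.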

Additional observations from a re-analysis of the deposited data

Results flagged for a closer look

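In 6 gene bodies KO minus WT differed between the diets by the Wald test on reads, adjusted across all genes, each time larger at 30 ppm. These are 11.1% of the 54, beside 16.9% of all genes with such a difference in any part, and over all gene bodies the median KO minus WT was also larger at 30 ppm, 1.86 points against 0.72. The excess of the difference at 30 ppm over that at 3 ppm was 7.12 points for Emx1, with 42.9% in KO against 32.6% in WT with excess FA and 37.2% in KO against 34.1% in WT with control FA (adjusted p = 0.00218). It was 6.31 points for Otx2 (in the same order 16.2%, 9.79%, 12.5% and 12.4%, adjusted p = 1.29e-05), where the genotypes stood apart at 30 ppm and together at 3 ppm. For Lhx2 it was 4.05 points (40.1%, 28.5%, 36.9% and 29.3%, adjusted p = 0.0338). Meis1 gave 3.89 points (71.4%, 67.5%, 70.0% and 70.0%, adjusted p = 1.84e-07) and Meis2 1.76 points (79.8%, 77.6%, 80.1% and 79.7%, adjusted p = 0.00315). Barhl2, a gene of diencephalic and spinal neurons, gave 3.69 points (6.03%, 1.62%, 4.10% and 3.38%, adjusted p = 0.0444). With 1 library per group, this test compares reads of 4 embryos from separate litters. The calls of Meis1, Meis2 and Otx2 held under each alternative tested. That of Emx1 was lost in thinned libraries (5.01 points, Wald test across all genes, adjusted p = 0.13), and that of Barhl2 there (2.84 points, adjusted p = 0.185) and with a start window of 2.5 kb (5.57 points, adjusted p = 0.0534). That of Lhx2 was lost with a minimum of 10 reads (4.18 points, adjusted p = 0.146), with no minimum of reads (1.56 points, adjusted p = 0.534) and with a start window of 2.5 kb (3.78 points, adjusted p = 0.0638). As a mean of CpG fractions, which was not tested, the excess was 4.71 points for Emx1 and 3.73 for Otx2.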

How the results depend on the processing

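Counts of genes called moved with the settings. They are given here without the share of all genes called at the same setting. The counts therefore show how the calls moved, and not whether these genes were called more often than all genes there. With a minimum of 10 reads per CpG, start windows called at 3 ppm went from 5 to 3, gene bodies at 30 ppm from 7 to 11, and diet calls in KO from 2 to 1. With no minimum of reads, start windows at 30 ppm went from 3 to 1 and diet calls in KO to 1. Thinned libraries gave 3 start windows at 3 ppm, and the first-ranked transcript 1 diet call in KO. A start window of 2.5 kb gave 5 and 8 start windows at 30 and 3 ppm, 12 bodies at 30 ppm, and 1 diet call in each genotype. A minimum difference of 20 points gave 0 and 1 start windows, 1 and 1 bodies, 0 and 0 upstream and 3 and 3 downstream flanks, and 0 diet calls in KO. With no minimum difference there were 6 and 8, 36 and 26, 22 and 21, and 19 and 26, with 8 diet calls in KO and 5 in WT. A valley limit of 10% gave 12.2 points at the edge at 30 ppm, beside 10.46 over all genes. Limma called 30 to 48 genes over the alternatives, and the median start window difference was 0.63 to 1.51 points at 30 ppm and 0.41 to 1.57 at 3 ppm. Values of named genes changed sign as follows. With a minimum of 10 reads the Emx1 (-0.41 points) and Lhx6 (-4.29) downstream flanks and the Otx1 (-0.0414) and Isl2 (-0.11) start windows at 30 ppm, and the Meis1 body (-0.348) and the Dlx4 (12.3) and Lhx4 (-3.61) start windows at 3 ppm did so. Thinned libraries did so for Otx1 (-0.0163) at 30 ppm and for Meis1 (-0.3004) and Dlx4 (0.574) at 3 ppm, in the same parts. The mean of fractions did so for Meis1 (-0.166), Dlx4 (4.38) and Lhx4 (-1.75) at 3 ppm. The first-ranked transcript did so for Otx1 (-2.70) and Lhx4 (-0.625) at 30 ppm and Isl2 (-0.213) and Lhx4 (-0.661) at 3 ppm, and a start window of 2.5 kb for Meis1 (-0.102) and Dlx4 (10.6) at 3 ppm. Among these the Dlx4 window of 2.5 kb alone was called. Their causes were not tested. Of the other values of named genes under an alternative, 334 kept direction (18 of them at 0) and side of the threshold, 9 went to or from a difference of 0 in the start windows of Irx1, Irx4 and Lmx1b, none of them called, 43 lost the call and 17 gained one. With 1 library per group no sample could be left out. The labels pair no samples by replicate number. Limma, with diet in its model, estimated a genotype difference common to both diets, and none for either diet alone. Depth limits the start windows most, where 16 reads are the fewest behind a level.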
